A study of Capra hircus with 3 samples.

Results

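The cells described here were a large set of fibroblasts in dorsal skin of cashmere goat fetuses at embryonic day 60 (E60), chosen by 5 genes, TMEM35A, RCAN2, CDC42EP3, CHN1 and RALGPS2. A cell of the E60 library was a member when it had a count for at least 3 of these 5 genes. It also had to have counts for fewer than 3 genes of each of 3 other lists. These were the DKK1 list (DKK1, CXCL14, F13A1, ISM1, C1QTNF7 and BMP7), the SMOC2 list (SMOC2, SEMA3C, SERPINF1, MFAP5, LMCD1 and EFHD1) and the cycling list (TOP2A, CENPF, NEK2, HJURP and CENPE). The rule was met by 2516 of 6849 E60 cells, a share of 36.7% (exact binomial 95% interval 35.6 to 37.9), of 20676 cells in all 3 libraries. Without the 3 excluding lists 4021 E60 cells would have qualified. Of the 1505 cells so left out, 894 had at least 3 genes of the DKK1 list, 210 of the SMOC2 list and 690 of the cycling list, and some met more than 1 of these. Because measured values chose the members, every difference between members and other E60 cells below is a description, and no test was made.

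The study compared back skin of Northern Shaanxi White Cashmere goats at E60, E90 and E120, stages its authors relate to the induction, organogenesis and cytodifferentiation of hair follicles. Each stage was 1 droplet library (10x Genomics 3′ chemistry, version 3). Skin at E60 and E90 was digested whole with collagenase IV, whereas at E120 follicles were picked out with forceps and dissociated with a second enzyme, so stage and dissociation cannot be told apart. Each library pooled cells of at least 2 fetuses before barcoding, and cells of different fetuses cannot be told apart, so there was no replicate at any stage.

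The table held 20676 cells, where the series text states 19705. The median E60 cell had 8579 counts, against 3714 at E90 and 13064 at E120. Between 9 and 13 cell barcodes were shared by each pair of libraries, and they were kept. Members and other E60 cells had like depth, with medians of 8570 and 8592 counts and of 1805 and 1840 genes per cell, and mitochondrial counts made up 4.42% and 4.6% in the median cell. A high doublet score, set to mark the highest 6% of E60 cells, was found in 69 members (2.74%) and 342 other cells (7.89%).

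Fetal dermal fibroblasts lay down the collagen and proteoglycan matrix of the skin and exchange WNT, BMP, FGF and hedgehog signals with the overlying epithelium while hair follicles form. In mammalian skin they separate during this period into lineages of the upper and lower dermis, the dermal condensate, and connective tissue below the skin. The 5 genes of the rule act inside the cell or in its membranes: TMEM35A is a chaperone for nicotinic acetylcholine receptors, RCAN2 regulates the phosphatase calcineurin, CDC42EP3 is an effector of the GTPase CDC42, CHN1 switches off the GTPase RAC, and RALGPS2 activates the GTPase RAL.

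Levels are given in CPM, the recovered molecule counts of a gene summed over all cells of a group and scaled to a group total of 1000000, with exact Poisson 95% intervals where shown, which cover counting error only. A summed level does not tell apart fewer cells with a transcript from less of it per cell, so shares of cells stand beside the main levels. Members were set beside all 4333 other E60 cells and, more closely, beside 2232 other E60 mesenchymal cells, which had fewer than 3 markers of each of 8 other cell classes and of the cycling list. Of these 2232 cells, 1471 had at least 3 genes of the DKK1 list and 532 at least 3 of the SMOC2 list, so the rule itself fixed much of what they held. The most like groups were 884 cells of the DKK1 list and 856 cells of the SMOC2 list, each with fewer than 3 genes of every other list of the rule.

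Among the 5 genes of the rule, RCAN2 reached 493 CPM in members, against 138 CPM in the other mesenchyme. CDC42EP3 was at 355 CPM against 132, RALGPS2 at 290 against 102, CHN1 at 216 against 139, and TMEM35A at 109 against 30.6. CHN1 therefore stood least apart, with a ratio of 1.55, and RCAN2 and TMEM35A most, with ratios of 3.59 and 3.57. In the DKK1 group CHN1 was at 93.0 CPM while TMEM35A was at 11.2 CPM, and in the SMOC2 group all 5 lay between 17.5 CPM for CHN1 and 28.3 CPM for CDC42EP3.

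All 5 genes were counted in 866 members (34.4%), 4 in 1108 (44.0%) and 3 in 542 (21.5%). The combination without TMEM35A was the most frequent after the full one, in 633 members (25.2%), and the one without CHN1 followed in 318 (12.6%). After every cell was thinned to 6000 counts, RCAN2 was detected in 92.1% of members and 33.5% of the other mesenchyme, and TMEM35A in 46.1% and 13.8%. With all counts these shares were 96.2% and 38.4% for RCAN2, and 57.8% and 19% for TMEM35A. In 104 E60 cells with at least 3 myeloid markers, which should lack fibroblast transcripts and had a median of 8646 counts against 8570 in members, RCAN2 was detected in 19.2% and TMEM35A in 0.962% of thinned cells. Because the rule required counts of these genes, the higher shares in members were fixed by the choice of members.

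**Figure D1:**
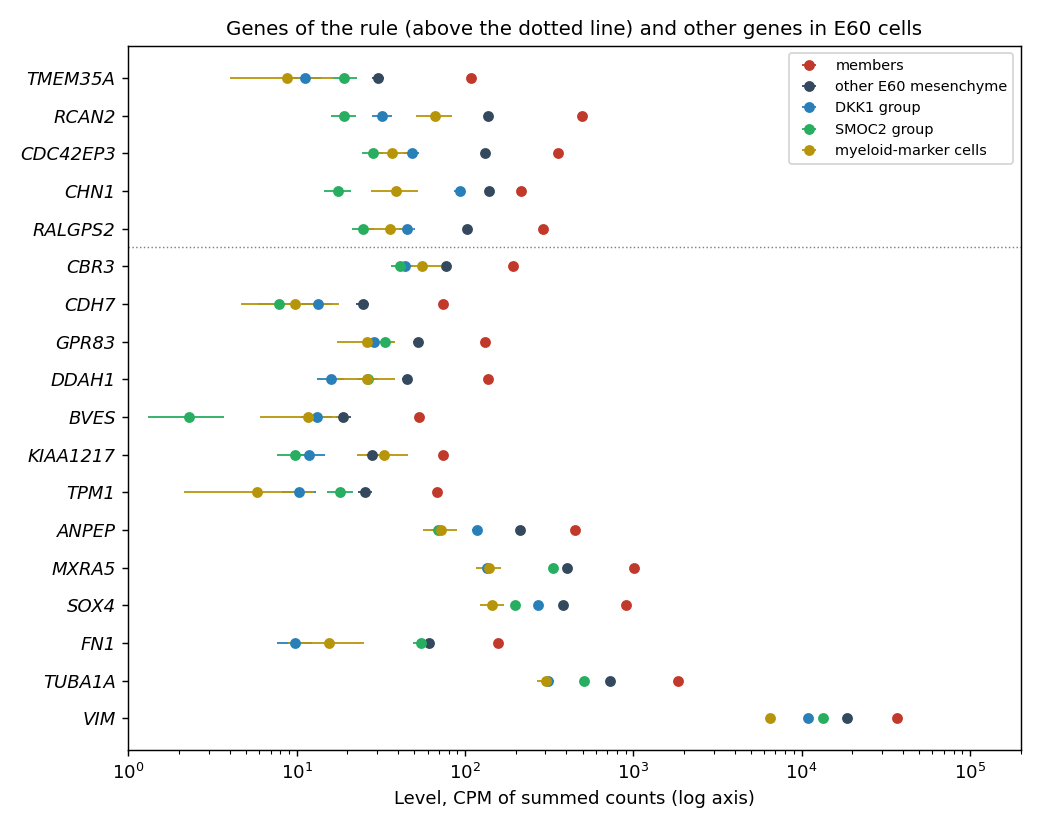
Summed level (CPM, log axis) of the 5 genes of the rule and of 13 other genes in members and 4 other groups of E60 cells; horizontal bars are exact Poisson 95% intervals, often narrower than the points. Of the 5 groups drawn, members were highest for all 18 genes, with VIM at 37167 CPM and TMEM35A at 109 CPM. The rule chose members by the first 5, and the other 13 were drawn from genes higher in members, so this order was largely set by selection.

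The name fibroblast was borne out by the dermal fibroblast markers, although having at least 3 of these did not set members apart from most other E60 cells. Of 14 listed markers 10 were in the table, and 2515 of 2516 members had at least 3 of them, as did 6787 of 6849 E60 cells. Their summed level was 17436 CPM in members, 18997 CPM in the other mesenchyme and 3817 CPM in the myeloid-marker cells. The 2 related groups lay apart, at 10106 CPM in the DKK1 group and 37766 CPM in the SMOC2 group. The homeobox factor PRRX1 was at 91.1 CPM in members and 91.0 CPM in the other mesenchyme. Members outnumbered the 884 cells of the DKK1 group and the 856 cells of the SMOC2 group, and only in this sense were they a main population.

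Markers of most other cell types were low in members. The erythroid, melanocyte, muscle, mast, endothelial and myeloid sums were still above those of the other mesenchyme. There the last 4 were at 13.5, 9.24, 39.5 and 14.8 CPM. The mural, glial, epithelial, and tendon and cartilage sums were below. Cells with at least 3 endothelial, myeloid, muscle or melanocyte markers had been left out of the other mesenchyme but not of members. For melanocyte markers these were only 4 E60 cells, 2 of them members. No cell was left out by mast markers, as 0 E60 cells had at least 3 of them. Erythroid markers were not used to leave out cells. All 7 epithelial markers KRT5, KRT14, KRT15, EPCAM, CDH1, TP63 and PERP were at 0, and the 11 epithelial markers in the table summed to 0.487 CPM. The 14 endothelial markers summed to 52.6 CPM in members and 6038 CPM in endothelial-marker cells, and the 11 myeloid markers to 20.3 CPM in members and 5479 CPM in myeloid-marker cells, with CSF1R and TYROBP at 0. At least 3 mural markers were present in 66 members (2.62%), and the mural sum was 239 CPM in members and 247 CPM in the other mesenchyme. The 11 tendon and cartilage markers summed to 180 CPM in members against 1207 CPM in the other mesenchyme, with SCX and ACAN at 0. The mast list had 5 of 7 markers at 0, and nearly all of its 21.3 CPM was the receptor tyrosine kinase KIT, which was at 20.8 CPM in members and 9.08 CPM in the other mesenchyme. The summed muscle markers were at 45.2 CPM, of which the cardiac actin ACTC1 made up 35.0 CPM, and 10 cells held 83.9% of its counts in members. The 8 melanocyte markers, KIT among them, summed to 32.1 CPM in members, 18.8 CPM in all other E60 cells and 12 CPM in the other mesenchyme, with TYR and DCT at 0. The erythroid markers summed to 845 CPM in members, 771 CPM in all other E60 cells and 617 CPM in the other mesenchyme. The haemoglobin gene HBAI had 93.6% of its counts in 10 members.

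A level of 20 CPM in at least 1 of both sums was reached by 3834 genes, of which 47 were at least 2-fold higher in members than in all other E60 cells (1.23%) and 368 at least 2-fold lower (9.6%), with a median log2 ratio over all these genes of -0.06. These counts, like those against the other groups below, include genes of the rule, whose direction the choice of members set. Ranking genes by the ratio of members to another group, here and below, leaves out the 22 genes of the rule. It also leaves out genes without a symbol and genes below 50 CPM in both sums. Of the 12 genes with the smallest ratio so ranked, 8 take part in mitosis. The rule had left out cells with counts for 3 or more genes of the cycling list. ASPM, a spindle pole protein, was at 0.93 CPM against 59.1 CPM, KIF23 at 1.73 against 65.1 and AURKA at 1.77 against 51.0. The remaining 4 of the 12, DLK1, CYTL1, THBS4 and ASPN, also led the comparison with the other mesenchyme.

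Genes with the largest ratios over all other E60 cells differed by less. CBR3, a carbonyl reductase, was at 194 CPM (188 to 200) in members and 70.8 CPM (68.3 to 73.4) in the others, a ratio of 2.74 (2.62 to 2.87). CDH7, a cadherin, was at 73.8 against 27.5 CPM, and GPR83, a G-protein-coupled receptor, at 132 against 50.6 CPM. The ectopeptidase ANPEP was at 451 against 180 CPM. EPSTI1 was at 65.5 against 27 CPM. Outside the rule genes, all 12 with the largest ratios on this side lay between 2.42 and 2.74, so none of these 12 stood far ahead.

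Against the other mesenchyme 3585 genes reached 20 CPM, of which 57 were at least 2-fold higher in members (1.59%) and 144 at least 2-fold lower (4.02%), with a median log2 ratio of 0.06. These counts, too, include genes of the rule. Outside the rule genes, the largest ratio was that of DDAH1, which breaks down an inhibitor of nitric oxide synthesis. It was at 138 CPM (133 to 143) against 45.2 CPM (42.2 to 48.3), or 3.05-fold (2.83 to 3.29). CDH7 was 2.99-fold higher, BVES, a membrane protein of cell contacts, 2.82-fold, and the tropomyosin TPM1 2.67-fold. KIAA1217 was 2.63-fold higher, and GPR83 2.53-fold. After thinning, DDAH1 was detected in 54.6% of members, 18.8% of the other mesenchyme and 12.5% of myeloid-marker cells. With all counts these shares were 65.8%, 25.8% and 17.3%.

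Genes of the cytoskeleton and of cell surroundings were among the higher ones with ample counts. TUBA1A, an alpha-tubulin, was at 1858 CPM (1840 to 1875) in members and 723 CPM (711 to 735) in the other mesenchyme. MXRA5, a secreted matrix protein, was at 1011 against 404 CPM, the matrix protein fibronectin (FN1) at 157 against 61.2 CPM, and the transcription factor SOX4 at 906 against 385 CPM. SPP1 (osteopontin) also ranked among the 10 largest, at 238 against 91.8 CPM, but a single member held 30.6% of its counts and 10 members held 59.3%. Its log2 ratio of 1.37 was 0.12 without members that carried at least 3 markers of another cell class and 0.14 without cells of high doublet score, and its level in myeloid-marker cells was 55720 CPM.

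**Figure D2:**
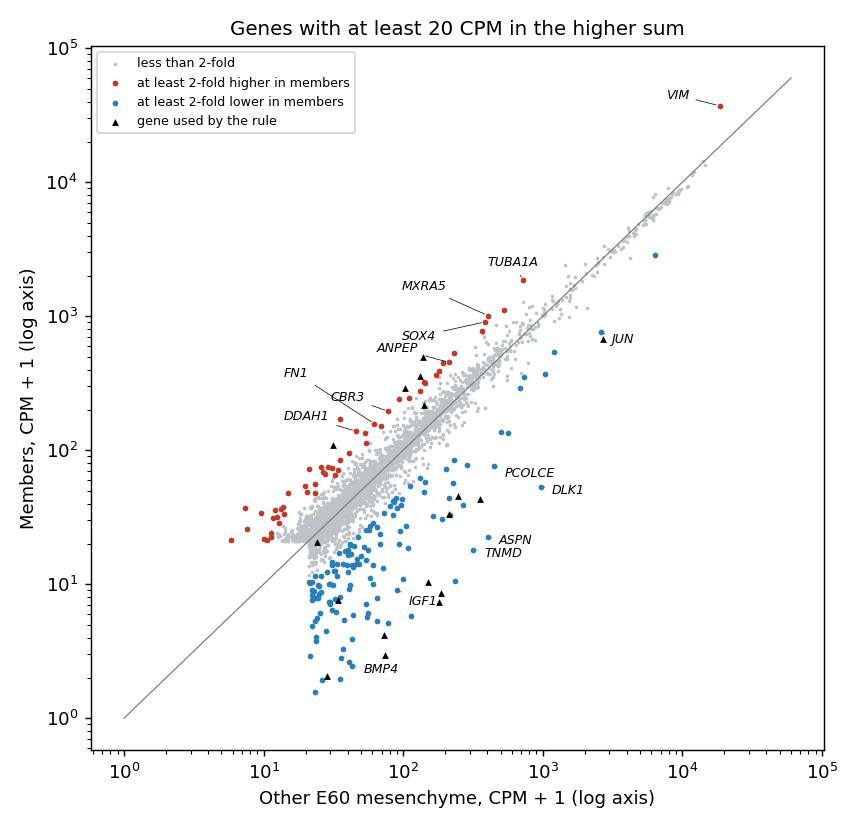
Level of each gene that reached 20 CPM in either sum, in members (vertical) and in other E60 mesenchyme (horizontal), both as CPM + 1 on log axes, with the line of equal levels; red and blue mark genes at least 2-fold higher or lower in members and triangles the genes the rule used. The 144 lower genes reach larger ratios than the 57 higher ones, and VIM at 37167 CPM is the most abundant of the higher genes.

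The intermediate filament gene VIM took more counts than any other gene in members outside ribosomal and mitochondrial genes. It reached 37167 CPM (37088 to 37247) in members, 18503 CPM in the other mesenchyme, 10916 CPM in the DKK1 group, 13505 CPM in the SMOC2 group and 6476 CPM in myeloid-marker cells. The ratio to the other mesenchyme was 2.01 (2.00 to 2.02). Among other abundant genes the actin ACTG1 was at 8136 CPM in members and 6319 CPM in the other mesenchyme, and the matricellular protein POSTN at 7710 against 6178 CPM. Decorin (DCN) was at 4499 against 4654 CPM, and the retinoic acid binding protein CRABP1 at 3965 against 4532 CPM. Beside the other mesenchyme, members thus held about the same of DCN, a little less of CRABP1, a little more of POSTN and more of VIM.

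The high VIM sum was spread over nearly all members. Per 6000 counts, members held from 7 to 506 VIM counts with a median of 226, and the cells of the other mesenchyme from 0 to 449 with a median of 88. The 10th percentile of members, at 148, lay above that median, and 98.9% of members exceeded it. The ranges still overlapped, because the 90th percentile of the other mesenchyme was 219. TUBA1A behaved alike, with a median of 11 counts in members and 3 in the other mesenchyme, and 95.4% of members above the latter. MXRA5 had medians of 6 and 1, and SOX4 of 5 and 1. In the other direction JUN, a transcription factor induced early by many stimuli, had medians of 2 and 14, and 6.80% of members exceeded the latter value.

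**Figure D3:**
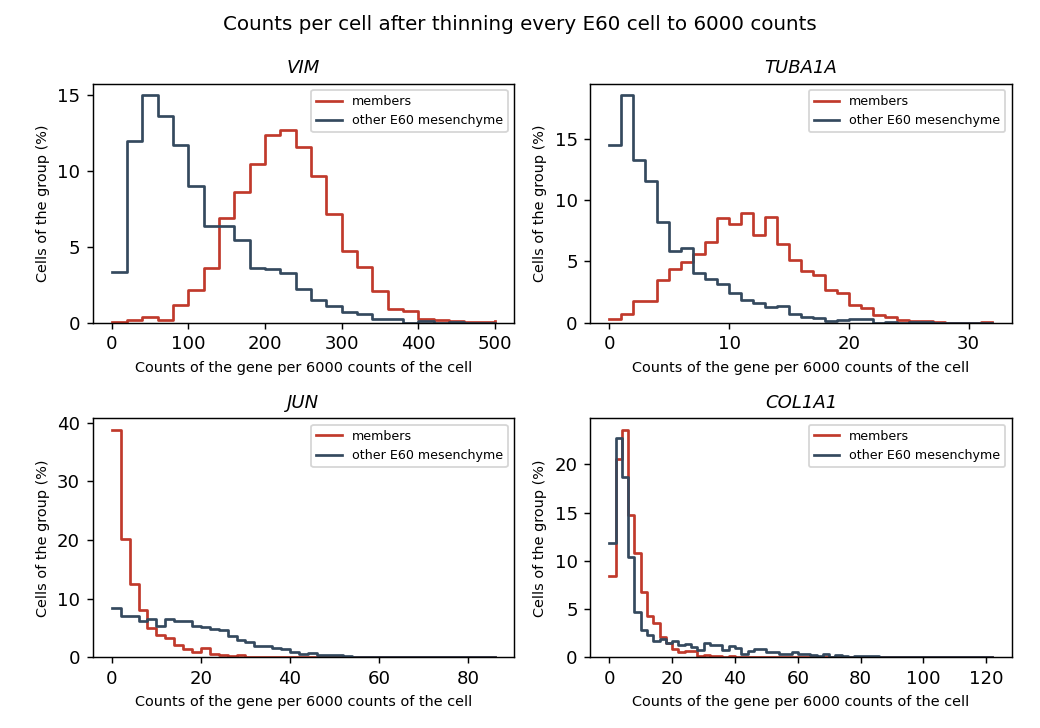
Share of cells (%) by the number of VIM, TUBA1A, JUN and COL1A1 counts per 6000 counts of the cell, for members (red) and other E60 mesenchyme (dark). VIM medians are 226 and 88 counts and JUN medians 2 and 14, whereas both groups have a COL1A1 median of 5 and differ in the upper tail.

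Over all 3585 genes 1.59% were at least 2-fold higher and 4.02% lower, the shares to set beside the list counts here and below. Tendon and cartilage markers were lower in members than in the other mesenchyme for 6 of 7 genes at 20 CPM, 0 were higher, and the list median was -3.46. Several of them were also among the 10 genes with the smallest ratios. THBS4, a matricellular protein of tendon, was at 9.52 CPM against 236 CPM, or 24.8-fold lower (21.6 to 28.6). TNMD, a membrane protein of tendon cells, was at 17.1 against 318 CPM, CYTL1, a secreted protein of cartilage, at 4.78 against 113 CPM, and the proteoglycan ASPN at 21.6 against 402 CPM. DLK1, a Notch-like protein that restrains fat cell formation, was at 52.6 against 971 CPM. ANGPTL1, SFRP1, IGFBP6 and CAPN6 were between 4.16 and 9.92 CPM in members and between 53.8 and 98.8 CPM in the other mesenchyme. Among the groups compared here, all 10 genes with the smallest ratios were highest in the SMOC2 group, where DLK1 was at 5002 CPM and ASPN at 1934 CPM. Clusters of E60 cells, described below, could hold more. In cluster 13, led by KERA and COL2A1, TNMD alone was at 4819 CPM, while all 11 tendon and cartilage markers summed to 3751 CPM in the SMOC2 group. In cluster 11, led by CCL11, SFRP1 was at 552 CPM. After thinning, DLK1 was detected in 21.2% of members and 33.7% of myeloid-marker cells, and ASPN in 9.54% and 21.2%. With all counts the shares were 29.0% and 49.0% for DLK1 and 12.7% and 26.9% for ASPN. The shares in members were thus below those in cells that should lack these transcripts. Whether these shares were background was not tested.

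Genes that act with the 5 rule genes did not stand apart as lists. Of 17 small GTPase genes at 20 CPM, 0 were at least 2-fold higher and 1 was lower, near the shares of 1.59% and 4.02% over all genes. The median log2 ratio was 0.12 against 0.06 over all genes. The lower one was the RAC activator TIAM1, at 6.33 CPM in members and 28.9 CPM in the other mesenchyme. SRGAP1, a GTPase-activating protein, was at 174 against 100 CPM, ARHGAP29 at 48.1 against 26 CPM and ARHGAP18 at 25.3 against 13.3 CPM. The calcineurin list had 3 genes at this level and none past 2-fold, with the calcineurin target NFATC4 at 40.7 against 58.4 CPM. Of 9 nicotinic receptor genes in the table, the clients of TMEM35A and their partners, 0 reached 20 CPM, and the highest in members was CHRNE at 0.576 CPM, named after its value was seen.

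Matrix genes were mostly at like or lower levels in members. Of 12 collagen genes, 0 were at least 2-fold higher and 3 were lower (1.59% and 4.02% over all genes), with a median log2 ratio of -0.23. These 3 were COL11A1 at 38.3 against 267 CPM, COL12A1 at 10.1 against 56.8 CPM and COL14A1 at 21.6 against 46.4 CPM. The main fibrillar collagen gene COL1A1 was at 1153 CPM in members and 2074 CPM in the other mesenchyme, with 691 CPM in the DKK1 group and 6295 CPM in the SMOC2 group. Per 6000 counts its median was 5 in both members and other mesenchyme, and the 90th percentiles were 14 and 38. The difference in COL1A1 therefore lay in fewer cells of very high level among members.

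Of 10 genes for collagen processing 1 was lower, the procollagen proteinase enhancer PCOLCE at 75.0 against 445 CPM, and the list median was 0.00. Small leucine-rich proteoglycans, which bind collagen fibrils, had 3 of 7 genes lower with a median of -0.61: ASPN, biglycan (BGN) at 29.7 against 189 CPM and fibromodulin (FMOD) at 57.4 against 143 CPM. Lumican (LUM) was at 2741 against 4196 CPM. None of 6 elastic fibre genes passed 2-fold, with a median of -0.30. Of 7 hyaluronan and proteoglycan genes 1 was lower, HAPLN3 at 9.12 against 28.8 CPM, while the list median was 0.48. In that list TNFAIP6, which binds hyaluronan, was at 748 against 374 CPM and the hyaluronan receptor CD44 at 236 against 165 CPM.

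Adhesion and matricellular genes had 1 of 12 higher and 1 lower, with a median of 0.04. The higher one was FN1, and the lower one THBS2 at 6.86 against 64.5 CPM. Tenascin C (TNC) was at 859 against 463 CPM, and the adhesion molecule NCAM1 at 108 against 204 CPM. Among matrix proteases and inhibitors 1 of 5 was lower, MMP23B at 37.9 against 96.0 CPM, with MMP2 at 902 against 642 CPM. The chemokine and complement list had 1 of 4 lower, the chemokine CCL11 at 0.974 against 34.2 CPM.

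Signalling genes past 2-fold were more often lower than higher in members, as were genes in general (4.02% lower and 1.59% higher of 3585). In the WNT list 0 of 15 were higher and 4 were lower, with a median of -0.62. The 4 were inhibitors or feedback genes of the pathway: SFRP1, DKK2 at 5.40 against 30.1 CPM, NKD1 at 9.08 against 60.1 CPM and NKD2 at 76.3 against 285 CPM. Of the 2 related groups, the SMOC2 group held more SFRP1 and DKK2, at 225 and 120 CPM. The DKK1 group held more NKD1 and NKD2, at 110 and 433 CPM. The 4 lower WNT genes thus differed in which related group held more of them, and the part of each group in the lower ratios was not tested.

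In the BMP list 1 of 11 was higher and 3 were lower, with a median of -0.13. GDF10, a secreted ligand of the TGF-beta family, was at 244 CPM in members and 110 CPM in the other mesenchyme. The ligand BMP4 was at 1.46 against 42.4 CPM, the decoy receptor BAMBI at 2.75 against 22.7 CPM and the BMP target ID1 at 43.1 against 212 CPM. In the TGF-beta list 1 of 7 was higher, the induced matrix protein TGFBI at 774 against 369 CPM, and 1 was lower, the ligand TGFB2 at 8.81 against 40.7 CPM, with a median of 0.16. So the list named BMP held a higher ligand and a lower ligand side by side.

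The insulin-like growth factor and PDGF list was the most one-sided of the signalling lists, with 5 of 7 genes lower, 0 higher and a median of -2.13. IGF1 was at 8.02 CPM in members and 90.1 CPM in the other mesenchyme, and IGF2 at 8.28 against 39.7 CPM. Of the binding proteins, IGFBP3 was at 1.82 against 34.8 CPM, IGFBP6 at 5.05 against 55.4 CPM and IGFBP5 at 290 against 688 CPM. IGFBP5 lies outside the rule for named genes and was named after its value was seen. After thinning IGF1 was detected in 1.39% of members and 20.8% of the other mesenchyme, and with all counts in 1.95% and 23.1%.

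Of 4 hedgehog genes 1 was lower, the receptor and target PTCH1 at 18.4 against 43.5 CPM, and the median was -0.42. Of 7 FGF genes 2 were lower, the ligand FGF18 at 7.0 against 34.3 CPM and the target ETV5 at 6.38 against 28.6 CPM, and the receptor FGFR2 was at 92.3 against 49.6 CPM. The Notch list had 1 of 4 lower, the ligand JAG1 at 18.9 against 40.5 CPM. In the retinoid list 1 of 4 was lower, the retinoic acid synthesis enzyme ALDH1A3 at 6.95 against 22.7 CPM, with the binding protein CRABP2 at 370 against 273 CPM. The guidance list had 1 of 8 lower, the semaphorin SEMA3D at 52.8 against 111 CPM.

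Of 15 dermal transcription factors 1 was higher, SOX4, and 2 were lower, MEOX2 at 6.11 against 53.6 CPM and ZFHX4 at 47.4 against 141 CPM. The homeobox factor IRX1 was at 152 against 264 CPM, and the list median was -0.11. Genes used to separate upper (papillary) from lower (reticular) dermis had 3 of 5 lower with a median of -1.49. These were the reticular genes DLK1 and CLEC3B, the latter at 133 against 566 CPM, and the papillary gene APCDD1 at 369 against 1039 CPM. The papilla and condensate list summed to 4098 CPM in members and 4760 CPM in the other mesenchyme, nearly all of it CRABP1, with FOXD1 and ALX4 at 0.

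Among genes of DNA replication 0 of 8 passed 2-fold against the other mesenchyme, with a median of -0.46. The G2 and mitosis list had 0 of 2, with its other genes in the table below 20 CPM. Cells with at least 3 genes of the cycling list had been left out of both sides, so these counts say little about division. Against the DKK1 group 5 of 9 replication genes were lower and 0 higher, with a median of -1.04 (5.51% and 7.28% over all genes). Against the SMOC2 group 0 of 8 passed 2-fold. Genes linked to cell cycle arrest had 2 of 4 lower than in the other mesenchyme, BTG2 at 18.9 against 91.8 CPM and CDKN1C at 353 against 729 CPM. Early-response genes, which many stimuli and handling of live cells induce, had 5 of 10 lower and 0 higher, with a median of -1.08. JUN was at 758 CPM in members and 2594 CPM in the other mesenchyme, FOSB at 56.4 against 227 CPM, KLF2 at 71.1 against 203 CPM and ATF3 at 7.88 against 22.1 CPM. FOS, named after its value was seen, was at 2840 against 6367 CPM. JUN was at 3783 CPM in the DKK1 group and 2148 CPM in the SMOC2 group, so both related groups held more of it than members did. The part of tissue digestion in these values was not tested.

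Members differed from the DKK1 group in 263 genes at least 2-fold higher (7.28%) and 199 at least 2-fold lower (5.51%) of 3613, with a median log2 ratio of 0.12. The adhesion molecule CADM3 was at 209 CPM (203 to 215) in members and 7.85 CPM (5.93 to 10.2) in the DKK1 group. GDF10 was at 244 against 13 CPM, FN1 at 157 against 9.82 CPM, the glypican GPC3 at 69.2 against 4.21 CPM and FILIP1L at 90.3 against 8.55 CPM. In the other direction BMP4 was at 1.46 CPM in members and 77.7 CPM in the DKK1 group, the water channel AQP4 at 1.64 against 62.1 CPM and IGFBP3 at 1.82 against 64.5 CPM. The adhesion molecule CADM1 was at 4.92 against 64.6 CPM. The 2 related adhesion genes CADM3 and CADM1 were thus high in opposite groups.

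Against the SMOC2 group 234 of 3823 genes were at least 2-fold higher in members (6.12%) and 442 at least 2-fold lower (11.6%), with a median log2 ratio of 0.04. CPXM2, a carboxypeptidase-like protein, was at 120 CPM (115 to 124) in members and 2.85 CPM (1.74 to 4.4) in the SMOC2 group. The heparan sulphate enzyme HS3ST6 was at 228 against 11 CPM, BVES at 53.5 against 2.28 CPM and EPSTI1 at 65.5 against 4.70 CPM. The largest ratio in the other direction was that of C2orf40, at 0.576 CPM in members and 117 CPM in the SMOC2 group. CCL11 was at 0.974 against 158 CPM and CYTL1 at 4.78 against 541 CPM. Of 14 collagen genes 9 were lower than in the SMOC2 group and 1 was higher, whereas of 11 collagen genes 1 was lower than in the DKK1 group and 4 were higher. The collagen level of members therefore lay between those of the 2 related groups for COL1A1, at 1153 CPM between 691 and 6295 CPM.

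The threshold of 3 genes lay on a gradient, as seen among E60 cells that passed the 3 excluding lists. These were 155 cells with 0 of the 5 genes, 190 with 1, 238 with 2, and members with 3, 4 or 5. VIM was at 22690 CPM in cells with 2 of the genes, just outside the threshold, and at 34047 CPM in cells with 3, just inside, and reached 38572 CPM with all 5. TUBA1A was at 933, 1634 and 2002 CPM in the same cells, MXRA5 at 526, 954 and 1050 CPM, and SOX4 at 478, 809 and 952 CPM. DLK1 was at 372 CPM just outside, 77.4 CPM just inside and 53.4 CPM with all 5 genes. For these 5 genes, members with 3 of the rule genes were nearer to members with 5 than to the cells outside. This did not hold for every gene: COL1A1 was at 1573, 1452 and 1001 CPM and LUM at 3111, 3313 and 2441 CPM in the same cells, so that members with 3 were nearer to the cells outside. Median depth was 7744 counts just outside, 7815 just inside and 9139 with all 5 genes, so cells with more of the genes counted were also deeper. Cells of other types were not left out of these groups. SPP1 was at 27635 CPM in cells with 0 of the genes, 1393 CPM with 2 and 468 CPM with 3. The tendon gene TNMD was at 775, 243 and 8.82 CPM in the same cells. The part of a changing mix of cell types in the gradient was not tested.

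**Figure D4:**
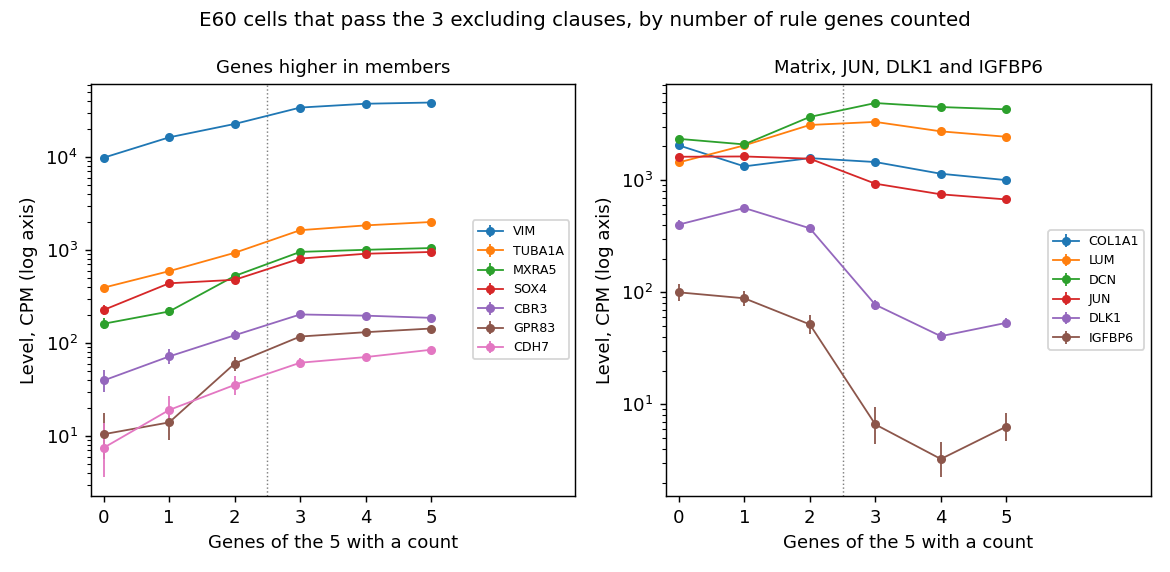
Level (CPM, log axis) by the number of rule genes with a count, in E60 cells that passed the 3 excluding lists; the dotted line is the threshold and bars are exact Poisson 95% intervals. VIM goes from 9835 CPM with 0 genes to 38572 CPM with 5, and IGFBP6 from 99.9 CPM to 6.34 CPM. Cells of other types were not left out.

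Members did not form a single cluster. When all E60 cells were grouped into 20 clusters, 6 clusters held 2448 members (97.3%), and clusters 7, 8 and 11, led by mitotic genes, by BMP4 with the DKK1 list and by CCL11, held 0. Genes of the cycling list were among those leading cluster 7, and genes of the DKK1 list among those leading cluster 8. The excluding lists of the rule thus largely set the 0 of these clusters in advance. Cluster 1, led by TMEM35A, CBR3 and KIF5C, was 93.9% members (927 of 987 cells). Cluster 2, led by CHN1, CPXM2 and FGFR2, was 81.8% members (711 of 869), and cluster 5, led by ANGPT1, ALDH1A1 and CADM3, 65.2% (324 of 497). Cluster 9, led by replication genes such as MCM5, was 66.7% members (266 of 399). Cluster 12, led by sterol synthesis genes such as IDI1 and by haemoglobin genes, was 48.2% members (106 of 220), and cluster 3, led by IGFBP5, F13A1 and DKK1, 17.4% (114 of 656). The clusters were made from the same values as the levels that follow, and their genes were named after their values were seen, so these describe the clusters and test nothing.

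Within members, the rule genes themselves differed between clusters. TMEM35A was at 146 CPM in members of cluster 1, 91.6 CPM in cluster 2 and 33.7 CPM in cluster 3. CHN1 ran the other way, at 179 CPM in cluster 1, 332 CPM in cluster 2 and 378 CPM in cluster 3, and it was at 58.5 CPM (49.9 to 68.2) in cluster 5. CPXM2 was at 181 CPM in cluster 2 and 13.6 CPM (9.65 to 18.7) in cluster 5. Members with more TMEM35A and members with more CHN1 thus lay in different clusters. RCAN2 was the more even of these, between 434 and 598 CPM in clusters 1, 2, 5, 9 and 12, with 189 CPM in cluster 3.

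Members of cluster 5 had the highest levels of GDF10, ANGPT1, ACTA2 and COL1A1 among the 6 clusters. GDF10 was at 506 CPM there and 317 CPM in cluster 1, against 30.4 to 239 CPM in the other 4. ANGPT1, a ligand of the endothelial receptor TEK, was at 196 CPM in cluster 5 and between 10.3 and 55.6 CPM in the other 5. The smooth muscle actin ACTA2 was at 529 CPM against 30.4 to 126 CPM, and COL1A1 at 2609 CPM against 644 to 1146 CPM. VIM was lower there, at 29786 CPM, than in clusters 1, 2 and 12, at 39617, 43659 and 46326 CPM. Across members, 358 (14.2%) had counts for all 3 of GDF10, ANGPT1 and ACTA2.

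Other clusters differed in single leading genes. MCM5, a subunit of the replicative helicase, was at 520 CPM in members of cluster 9 and at most 30.9 CPM in the other 5 clusters, and these members were deeper, with a median of 10878 counts. The sterol enzyme IDI1 was at 639 CPM in cluster 12 and between 102 and 155 CPM elsewhere, and these members were shallower, with 7231 counts. JUN was at 2111 CPM in members of cluster 3 and between 512 and 892 CPM in the other 5, so members next to the DKK1-led cells held the most of it.

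**Figure D5:**
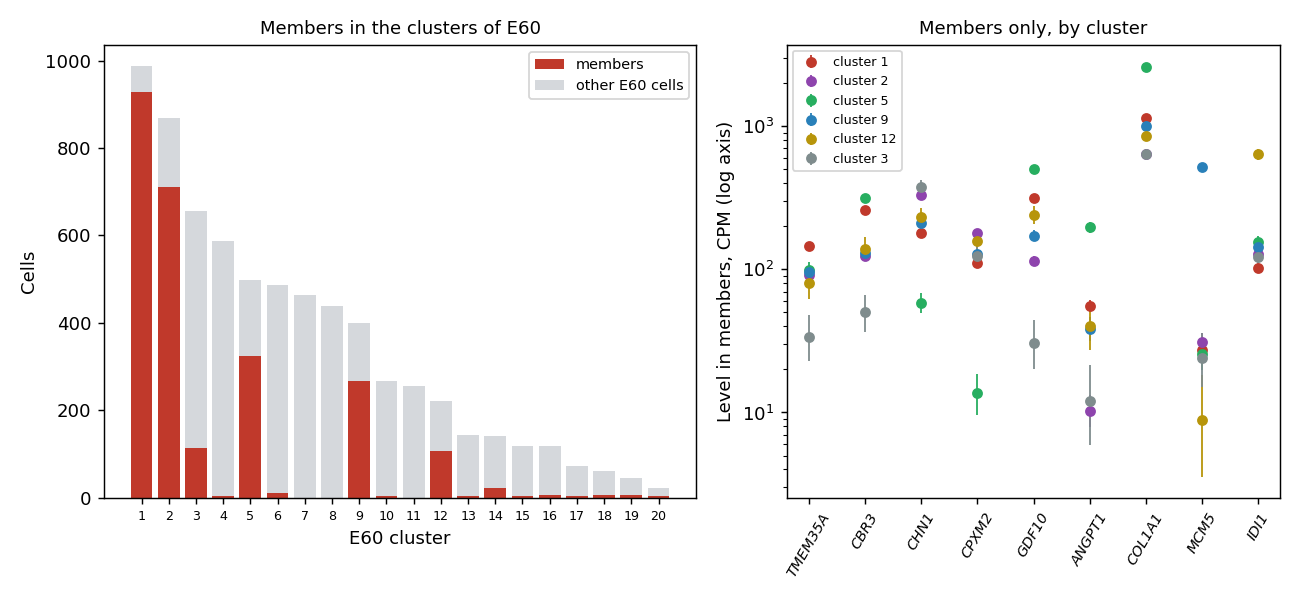
Left, cells of the 20 E60 clusters split into members (red) and other cells (grey); right, level (CPM, log axis, exact Poisson 95% intervals) of 9 genes in members of 6 clusters. Cluster 1 holds 927 members and cluster 2 holds 711; MCM5 stands out in cluster 9, IDI1 in cluster 12, and ANGPT1, GDF10 and COL1A1 in cluster 5.

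Few cells at the later stages met the rule. It was met by 150 of 6931 cells at E90 (2.16%, exact binomial 95% interval 1.83 to 2.53) and by 15 of 6896 cells at E120 (0.218%, 0.122 to 0.359), against 36.7% at E60. After all cells were thinned to 2000 counts the shares were 14.8% at E60, 0.447% at E90 and 0% at E120, where 0 of 6896 cells allow a share of up to 0.0435% by a limit of 3 cells and of up to 0.0535% by the exact binomial interval. Over whole libraries TMEM35A was at 58.3 CPM at E60, 11.7 CPM at E90 and 0.418 CPM at E120, and RCAN2 at 275, 62.6 and 1.41 CPM. RALGPS2 kept more of its level, at 170, 137 and 50.3 CPM.

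The few later cells that met the rule had lower VIM and MXRA5 levels than E60 members. At E90 they held 6587 CPM of VIM and 336 CPM of MXRA5, against 4160 and 187 CPM over the whole E90 library and 37167 and 1011 CPM in E60 members. COL1A1 was at 1331 CPM in them and 674 CPM in their library. The keratin KRT14, which was at 0 in all E60 cells, was at 533 CPM in the 150 cells at E90 and 759 CPM in their library. At E120 it was at 11838 CPM in the 15 cells and 551 CPM in their library. With 1 library a stage, stage and library cannot be told apart, and for E120 neither can dissociation.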

How the data were processed

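Goat fetal skin was profiled in 1 single-cell library per stage (E60, E90 and E120). Reads had been processed by the authors with Cell Ranger 3.0.2, per the submitters' processing notes; the genome build, the annotation and any filtering of cells or genes are not given in the sources used here. The deposited values were on a natural log scale, as the natural log of 1 plus the counts of a cell scaled to 10000, as the values themselves showed. Whole counts were recovered by undoing this, and 100% of nonzero values came out whole within 0.01. Of 16739 genes, 4030 had no symbol and were not named.

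Counts were summed over the cells of a group and given as CPM, and ratios are log2 of CPM + 1. A gene counted as higher or lower at a 2-fold ratio when either sum reached 20 CPM. With 1 library, no test was made; cells are not replicates. Intervals are exact at 95%. Thinning drew 6000 counts per E60 cell, or 2000 per cell for stages, and left out 0 cells. E60 cells were clustered on 2000 variable genes and 30 components (Leiden, leidenalg 0.10.2, with Python 3.11.15, numpy 2.4.6, scipy 1.17.1 and scikit-learn 1.9.0), and doublet scores compared each cell with simulated pairs; high-scoring cells were kept. The summing was tested on simulated data.

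Named genes were the 12 largest and 12 smallest ratios against other E60 cells, 10 and 10 against other mesenchyme and 5 and 5 against each related group (at least 50 CPM, with a symbol, without the 22 genes of the rule), the 5 marker genes, the 10 most abundant genes, and up to 4 per gene list; a few that the rule names are not reported here. The members and lists were chosen with earlier results of these data known. Alternatives covered the pseudocount, weighting, the rule, thinning, doublets, scaling, mitochondrial share and the level filter.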

Additional observations from a re-analysis of the deposited data

How the results depend on the processing

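Without the 3 excluding lists the rule gave 4021 cells in place of 2516. With at least 4 of the 5 genes 26 genes in place of 57 were at least 2-fold higher than in the other mesenchyme; that comparison then holds members with 3 genes on its other side. Restricting to genes with at least 100 CPM gave 27 higher and 93 lower genes against other E60 cells (47 and 368 at 20 CPM), and 27 and 36 against the other mesenchyme (57 and 144). With no level filter the counts were 84 and 1108, and 134 and 491, over all 16739 genes. The other alternatives left each of these counts within 1.5 times, and 0 of the ratios of named genes reversed. Many of these ratios still moved outside their counting intervals. With a pseudocount of 10 CPM 166 moved and 134 did not, with at least 4 of the 5 genes 182 and 118, and on thinning 147 and 153. Under each of the remaining alternatives between 2 and 95 moved. Of 158 named ratios past 2-fold, 141 stayed so with at least 4 of the 5 genes, 146 with a pseudocount of 10 CPM, and 156 to 158 with equal weight per cell, thinning, removal of high doublet scores, median-of-ratios scaling or a limit of 10% mitochondrial counts. An alternative added after seeing the data, members without cells that held at least 3 markers of another class, gave 2428 members, 52 higher and 159 lower genes, and kept 71 of 72 ratios, SPP1 being the exception. No paired analysis was possible because each stage was 1 library without replicate numbers. Genes at a few CPM in a group rest on few counts: 3 counts equal 0.133 CPM in members and 2.92 CPM in the 104 myeloid-marker cells.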
